A study of Arabidopsis thaliana with 4 samples.

Results

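Transcripts of 5 auxin genes were followed in dark-grown Arabidopsis thaliana seedlings that lack the function of the ethylene transcription factors EIN3 and EIL1. The genes are IAA29 (AT4G32280) and IAA20 (AT2G46990), which encode Aux/IAA repressors, and GH3.3 (AT2G23170), GH3.5 (AT4G27260, also named WES1) and IAGLU (AT4G15550), which encode enzymes that conjugate auxin. They are 5 genes, each read by 1 probe set, of the 22746 plant probe sets on the Affymetrix ATH1 array. They were chosen by name, with their differences between the genotypes already known. Their values are therefore given as a description without p values, and nothing is supported with them.

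The samples were 2 arrays of the ein3-1eil1-1 double mutant (AT3G20770, AT2G27050; written ein3 eil1 here) and 2 arrays of wild type (labelled Wt, Col-o). All were whole etiolated seedlings grown for 4 days in darkness after a cold treatment and a short exposure to light that started germination, and total RNA was labelled. According to the labels the mutant seedlings hold more protochlorophyllide, a chlorophyll precursor, than wild type. The labels do not give the number of plants per array or say whether the plants of a genotype were grown separately. In each genotype 1 array is titled as a biological replicate. An array pair below is 1 mutant and 1 wild-type array with matching titles, and pair 2 holds the arrays titled as biological replicates. Whole seedlings were extracted, so fewer cells of a type and less RNA per cell cannot be told apart.

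Auxin acts by bringing Aux/IAA proteins to the TIR1/AFB receptors, where they are marked for destruction. The auxin response factors that they hold back are then free to act. Many Aux/IAA and GH3 genes are themselves switched on by auxin, so that the pathway dampens itself. GH3 enzymes join indole-3-acetic acid, the main natural auxin, to amino acids, and some glucosyltransferases join it to glucose, which takes it out of the active pool. In etiolated Arabidopsis seedlings, auxin and ethylene act together on the growth of the hypocotyl and the closing of the apical hook.

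Overall brightness differed between the arrays. The median deposited intensity was 50.8 and 85.2 on the mutant arrays and 49.5 and 52.3 on the wild-type arrays. Normalised values below are therefore log2(intensity + 3) after quantile normalisation, and a log2 difference is mutant minus wild type on that scale. The SE of a difference is limma's, which draws on the spread of all tested probe sets, whereas an SD is of the 2 arrays of a genotype. Of the plant probe sets, 14047 reached the 40th percentile of their array on at least 2 arrays and were tested with limma. EIN3, 1 of the mutated genes, averaged 6.86 ± 0.50 in the mutant and 9.98 ± 0.36 in wild type (SD, n = 2 each; limma adjusted p = 0.014). Of 20 marker symbols for roots, seed reserve use, stomatal lineage, shoot meristem and vasculature, 8 were named on the array and 3 of those were tested. The root gene PYK10 differed by -0.01, the reserve gene ICL by -0.02 and the stomatal lineage gene SPCH by -0.24 on the log2 scale, with limma adjusted p values of 1.00 for each. ICL differed by -0.45 in pair 1 and 0.41 in pair 2, and SPCH by -1.25 and 0.78. For these genes a small mean difference does not show that the signal was unchanged. The root genes EXPA7 and EXPA18 and the stomatal lineage genes MUTE and FMA were too dim to be tested. The shoot meristem gene CLV3 was also too dim, and no vascular marker had a named probe set.

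Of the repressor genes, IAA29 was the brighter in the mutant and IAA20 the brighter in wild type. IAA29 is known in Arabidopsis as a target of the phytochrome-interacting factors and as a gene of shade-induced growth. Its deposited intensity was 845.5 and 1405 on the mutant arrays, against 142.6 and 179.2 on the wild-type arrays. Both mutant values lay far above both wild-type values. After normalisation the signals were 9.89 and 9.88 in the mutant and 7.36 and 7.77 in wild type. The probe set stood at the 94.8 percentile of both mutant arrays, against the 72.2 and 78.0 percentiles of the wild-type arrays. The mutant arrays were nearly equal, and the spread lay in wild type, where the gap of 0.41 was close to the median gap of 0.37 over all tested probe sets. The means were 9.89 ± 0.0056 in the mutant and 7.56 ± 0.29 in wild type (SD, n = 2 each), a log2 difference of 2.32 (SE 0.29) or 5.01-fold higher in the mutant. The difference was 2.53 in pair 1 and 2.11 in pair 2.

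IAA20 belongs to a branch of the Aux/IAA family that lacks the conserved domain through which auxin targets the proteins for degradation, and the protein is long-lived. Its deposited intensity was 55.7 and 100.1 on the mutant arrays, against 179.1 and 281 on the wild-type arrays. The higher mutant value lay below the lower wild-type value, although the brighter mutant array was also the array with the highest median. The normalised signals were 6.07 and 6.14 in the mutant and 7.67 and 8.43 in wild type. The mutant arrays placed the probe set close to their middle, at the 52.1 and 53.1 percentiles, and the wild-type arrays at the 76.6 and 85.4 percentiles. The means were 6.10 ± 0.048 in the mutant and 8.05 ± 0.54 in wild type (SD, n = 2 each), a log2 difference of -1.95 (SE 0.33), which leaves 0.259 of the wild-type signal. It was -1.60 in pair 1 and -2.30 in pair 2, and the wild-type arrays differed from each other by 0.76. Of the tested probe sets, 81.3% had a smaller gap between the wild-type arrays, so IAA20 was among the more variable ones there.

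**Figure D1:**
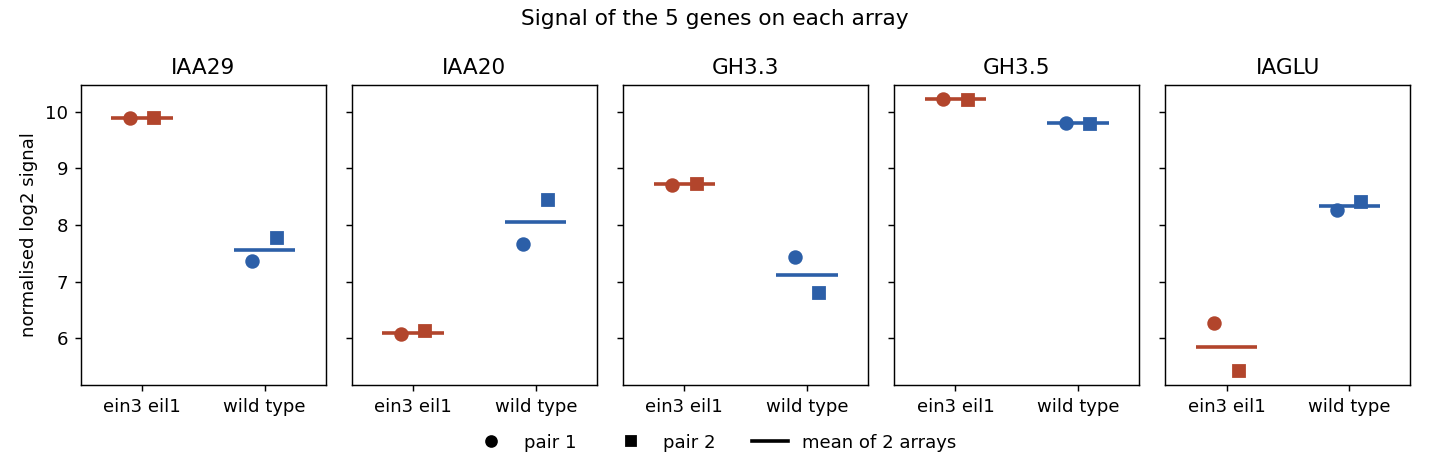
Normalised log2 signal (vertical axis, log2(intensity + 3) after quantile normalisation) of the 5 genes, 1 panel each, in ein3 eil1 and wild type. Circles are the arrays of pair 1, squares those of pair 2, and bars the mean of 2 arrays. The genotypes do not overlap in any panel, IAA29, GH3.3 and GH3.5 lie higher and IAA20 and IAGLU lower in ein3 eil1, and IAGLU is the gene with the widest gap between the mutant arrays (0.85).

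The enzyme genes were also divided, with GH3.3 and, by a small amount, GH3.5 brighter in the mutant and IAGLU brighter in wild type. GH3.3 encodes an auxin-inducible enzyme that joins indole-3-acetic acid to amino acids. Its deposited intensity was 375 and 630.2 on the mutant arrays, against 150.6 and 93.9 on the wild-type arrays. After normalisation the mutant arrays agreed within 0.012, with 8.71 and 8.72, while the wild-type arrays read 7.43 and 6.79. The groups did not overlap, and the gap of 0.64 between the wild-type arrays was larger than in 74.0% of the tested probe sets. GH3.3 averaged 8.72 ± 0.0085 in the mutant and 7.11 ± 0.45 in wild type (SD, n = 2 each), a log2 difference of 1.60 (SE 0.32) or 3.04-fold higher in the mutant. The difference was 1.28 in pair 1 and 1.93 in pair 2, a spread set by the wild-type arrays.

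GH3.5 encodes a related enzyme that accepts both indole-3-acetic acid and salicylic acid. It was already bright in wild type, where it stood at the 94.4 percentile of both arrays, and it stood at the 96.0 and 95.9 percentiles of the mutant arrays. The deposited intensities were 1075.2 and 1749 in the mutant and 806.8 and 729.9 in wild type. Normalisation brought the replicates together, to 10.23 and 10.21 in the mutant and 9.80 and 9.79 in wild type. GH3.5 averaged 10.22 ± 0.014 in the mutant and 9.79 ± 0.0052 in wild type (SD, n = 2 each), a log2 difference of 0.43 (SE 0.26) or 1.34-fold higher in the mutant. Both pairs gave nearly this value, 0.43 in pair 1 and 0.42 in pair 2. Only 0.904% of the tested probe sets had a smaller gap between the wild-type arrays and 3.1% a smaller gap between the mutant arrays, so an SD from 2 such arrays is a poor measure of the error. On the scale as deposited the difference was 0.84, of which 0.40 was the median shift of all tested probe sets, leaving 0.44 relative to that median.

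IAGLU is annotated as an indole-3-acetate beta-D-glucosyltransferase, an enzyme that makes the glucose ester of auxin. Its deposited intensity was 64.5 and 57.2 on the mutant arrays, against 273 and 275.8 on the wild-type arrays. Here the wild-type arrays agreed closely and both mutant arrays were dim. The normalised signals were 6.27 and 5.42 in the mutant and 8.26 and 8.41 in wild type. IAGLU stood at the 55.2 and 43.1 percentiles of the mutant arrays, the second of these not far above the 40th percentile used as the filter, and at the 83.7 and 85.1 percentiles of the wild-type arrays. It averaged 5.84 ± 0.60 in the mutant and 8.33 ± 0.11 in wild type (SD, n = 2 each), a log2 difference of -2.49 (SE 0.34), which leaves 0.178 of the wild-type signal. The difference was -1.99 in pair 1 and -2.99 in pair 2. The gap of 0.85 between the mutant arrays was larger than in 89.9% of the tested probe sets.

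Set side by side, the 5 genes split within each role, in directions that were known when they were chosen. The split was the same in both pairs, which follows from the lack of overlap and is not a second observation. In all 5 the values of the genotypes did not overlap, as was true of 31.6% of all tested probe sets in either direction. The 3 that lay higher in the mutant compare with 16.5% of the tested probe sets, and the 2 that lay lower with 15.1%. IAA29 and GH3.3 were at least 2-fold higher without overlap, as 1.84% of the tested probe sets were, and IAA20 and IAGLU were at least 2-fold lower without overlap, as 1.89% were. IAA29 and GH3.3 were also at least 2-fold higher in both pairs taken singly, as 0.89% of the tested probe sets were, and IAA20 and IAGLU at least 2-fold lower in both, as 1.14% were. These shares are given as the background only, because the genes were chosen on the same comparison. All 5 genes lay above the 40th percentile on every array, so none of them entered the test through 1 genotype alone.

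**Figure D2:**
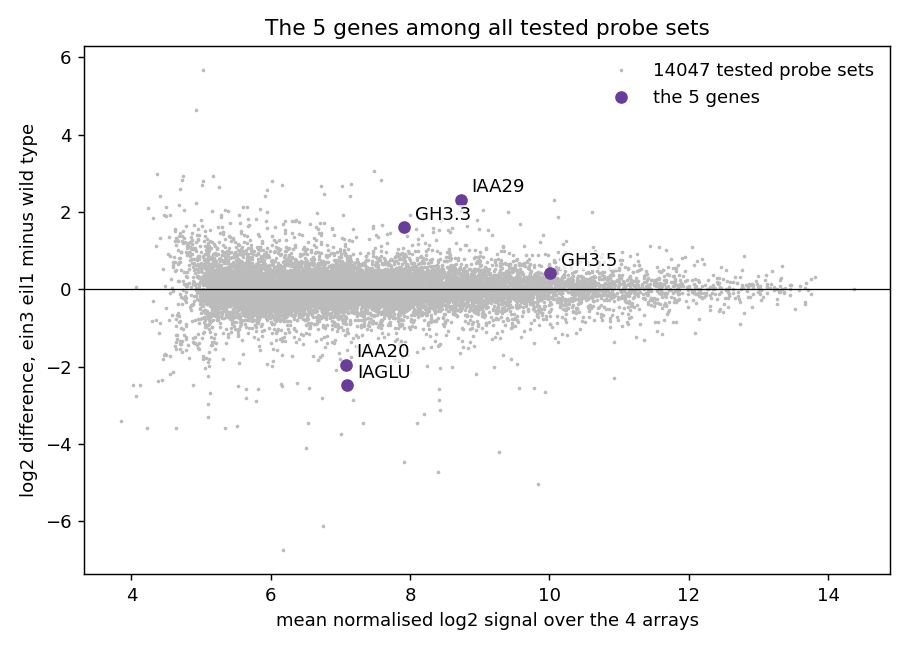
Log2 difference, ein3 eil1 minus wild type (vertical axis), against the mean normalised log2 signal over the 4 arrays (horizontal axis) for 14047 tested probe sets (grey) and the 5 genes (purple). IAA29 (2.32) and GH3.3 (1.60) lie among the sparse grey points above the dense cloud and IAA20 (-1.95) and IAGLU (-2.49) among those below it, while GH3.5 (0.43) lies close to the dense cloud at a higher signal.

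A ratio of deposited intensities within an array does not depend on how the arrays were scaled. It shows whether 2 probe sets changed unequally, not which transcript was more abundant. The ratio of IAA29 to IAA20 was 15.2 and 14.0 on the mutant arrays and 0.796 and 0.638 on the wild-type arrays, so the ratio was 19.1-fold higher in the mutant in pair 1 and 22.0-fold higher in pair 2. The ratio of GH3.3 to IAGLU was 5.81 and 11.02 on the mutant arrays and 0.552 and 0.340 on the wild-type arrays. The ratio of these 2 probe sets was 10.5-fold higher in pair 1 and 32.4-fold higher in pair 2. Between the GH3 genes the change was smaller, with ratios of GH3.3 to GH3.5 of 0.349 and 0.360 in the mutant and 0.187 and 0.129 in wild type. That ratio was 1.87-fold higher in the mutant in pair 1 and 2.80-fold higher in pair 2. For genes on the same side, as the GH3 genes also are, the changes partly cancel in a ratio. The directions were known when the genes were chosen, so nothing is read from this. The ratio of IAA29 to GH3.3 was 2.38-fold higher in the mutant in pair 1 and 1.17-fold higher in pair 2, and that of IAA20 to IAGLU was 1.32-fold and 1.72-fold higher.

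The likeness of the patterns was measured as the root mean square distance between normalised log2 values, each centred on its own mean over the 4 arrays. Among the 5 genes the closest were IAA20 and IAGLU, at 0.47, and IAA29 and GH3.3, at 0.52. The distances of the remaining combinations ran from 0.63 for GH3.3 and GH3.5 to 2.43 for IAA29 and IAGLU. The same measure was taken against the other 7547 tested probe sets with 1 named gene. Nearest to IAGLU were EXO (0.092), a brassinosteroid-responsive growth gene, the defensin-like gene PDF2.5 (0.098) and RAD51B (0.10), a gene of DNA repair. Nearest to IAA20 were AT5G57170 (0.180), the ubiquitin-conjugating enzyme gene UBC29 (0.182) and AT1G03320 (0.187).

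IAA29 had no neighbour as close, with AT4G13180 (0.25), AT1G54740 (0.29) and AT3G45160 (0.32) the nearest. GH3.3 was nearest to AT1G68110 (0.13), AT4G04630 (0.14) and AT5G11070 (0.15). GH3.5, whose values varied little, had the smallest distances, to AT4G02940 (0.0088), ULT1 (0.023), which encodes a developmental regulator, and AT3G62110 (0.025). None of these nearest genes belongs to the auxin lists. With 4 arrays, a small distance says that the values were alike on these arrays and nothing more.

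Beyond the 5 genes, only a part of the auxin pathway could be tested. Of 200 symbols and aliases in 9 lists of auxin genes (receptors, Aux/IAA repressors, response factors, amino acid and sugar or methyl conjugation, conjugate hydrolysis and oxidation, synthesis, transport and other auxin-responsive genes), 26 genes had a named probe set, 5 of them described above. Of the other 21 genes, 12 were tested. No gene of the receptor, response factor, or conjugate hydrolysis and oxidation lists had a named probe set, so those classes were not examined. With limma, 0 of the 12 rose and 1, ARL, fell, and 3 had an unadjusted p under 0.05. Over all tested probe sets, 0.0783% rose, 0.214% fell, 0.292% were called in either direction, and 6.15% had an unadjusted p under 0.05. The median log2 difference of the 12 was 0.28, against 0.0091 over all tested probe sets, with 7 genes above zero and 5 below. The genotypes did not overlap in 7 of the 12 (58.3%), against 31.6% of all tested probe sets. Nothing is read from these summaries, because the 12 include ARL, listed with its fall known, and GH3.1, which passed the filter through the mutant arrays alone.

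Among the remaining Aux/IAA genes, neither tested gene passed. IAA18, a repressor with a role in embryo and root development, had signals of 7.89 and 7.97 in the mutant and 7.75 and 8.37 in wild type, and the genotypes overlapped. Its log2 difference of -0.13 (SE 0.32, limma adjusted p = 1.00) had opposite signs in the pairs, 0.14 and -0.40. IAA30, the close relative of IAA20, had deposited intensities of 41.4 and 40.3 in the mutant and 46.6 and 41.1 in wild type. Its log2 difference was -0.38 (SE 0.41, limma adjusted p = 1.00), with -0.20 in pair 1 and -0.56 in pair 2. Whether the differences of IAA20 and IAA30 differ from each other was not tested.

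IAA31, IAA33 and IAA34, of the same divergent group, did not reach the filter and were not tested. Their deposited intensities were 1.9 and 0.9 for IAA31, 8.0 and 7.1 for IAA33 and 15.6 and 16 for IAA34 in the mutant. In wild type they were 10.2 and 16.7 for IAA31, 10.3 and 11.9 for IAA33 and 31.3 and 15.9 for IAA34. The log2 differences were -1.95 for IAA31, -0.60 for IAA33 and -0.61 for IAA34. At such signals a difference depends on the background and the pseudocount.

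In the GH3 family neither tested relative of GH3.3 and GH3.5 passed. GH3.17, which encodes an enzyme that conjugates auxin to glutamate, had deposited intensities of 352.3 and 645.3 in the mutant and 329.5 and 194.3 in wild type. Its log2 difference was 0.48 (SE 0.32, limma adjusted p = 1.00), with 0.10 in pair 1 and 0.86 in pair 2. GH3.1 read 29.9 and 50.7 in the mutant and 15.0 and 17.6 in wild type, which is 0.88 higher on the log2 scale (SE 0.54, limma adjusted p = 0.985). GH3.1 passed the filter through the mutant arrays alone, where it stood just above the 40th percentile, so a positive sign was favoured by the filter. GH3.9 was too dim to be tested, at 19.0 and 2.6 in the mutant and 23.3 and 20.3 in wild type. Its log2 difference was -1.24, in the opposite direction, and after normalisation the genotypes overlapped.

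Among the glucosyltransferase genes of the conjugation list, UGT74B1 had the higher and UGT74D1 the lower of the tested differences, both positive and thus of opposite sign to IAGLU. UGT74B1, an enzyme of glucosinolate synthesis, read 407 and 723 in the mutant and 311 and 134.5 in wild type. Its log2 difference of 0.99 (SE 0.39) did not pass (limma adjusted p = 0.727). It was 0.39 in pair 1 and 1.59 in pair 2. Without wild type replicate 1 it was 1.54, and without wild type replicate 2, the array that read 134.5, it was 0.44. UGT74D1, which acts on auxin and its oxidised form, differed by 0.41 (SE 0.30, limma adjusted p = 1.00). UGT84B1, an auxin glucosyltransferase gene, and its neighbour in the family UGT84B2 did not reach the filter. UGT84B1 read 1.1 and 9.2 in the mutant and 1.7 and 5.7 in wild type, and UGT84B2 read 9.2 and 5.9 in the mutant and 1.6 and 1.2 in wild type.

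Synthesis and transport were represented by few genes. YUC2, a flavin monooxygenase gene of auxin synthesis, read 65.0 and 63.4 in the mutant and 47.6 and 53.6 in wild type. After normalisation the genotypes overlapped, and the log2 means differed by -0.01 (SE 0.37, limma adjusted p = 1.00). YUC4, YUC6 and YUC11 did not reach the filter. WAG2, a protein kinase gene that acts on the auxin efflux carriers, read 286.7 and 271 in the mutant and 499.1 and 450.8 in wild type. Its normalised signals were 8.33 and 7.51 in the mutant and 9.09 and 9.12 in wild type, so the genotypes did not overlap. The log2 difference of -1.18 (SE 0.34) was -0.75 in pair 1 and -1.61 in pair 2, and it did not pass (limma adjusted p = 0.418). With the array pair as a block it passed (limma adjusted p = 0.025).

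**Figure D3:**
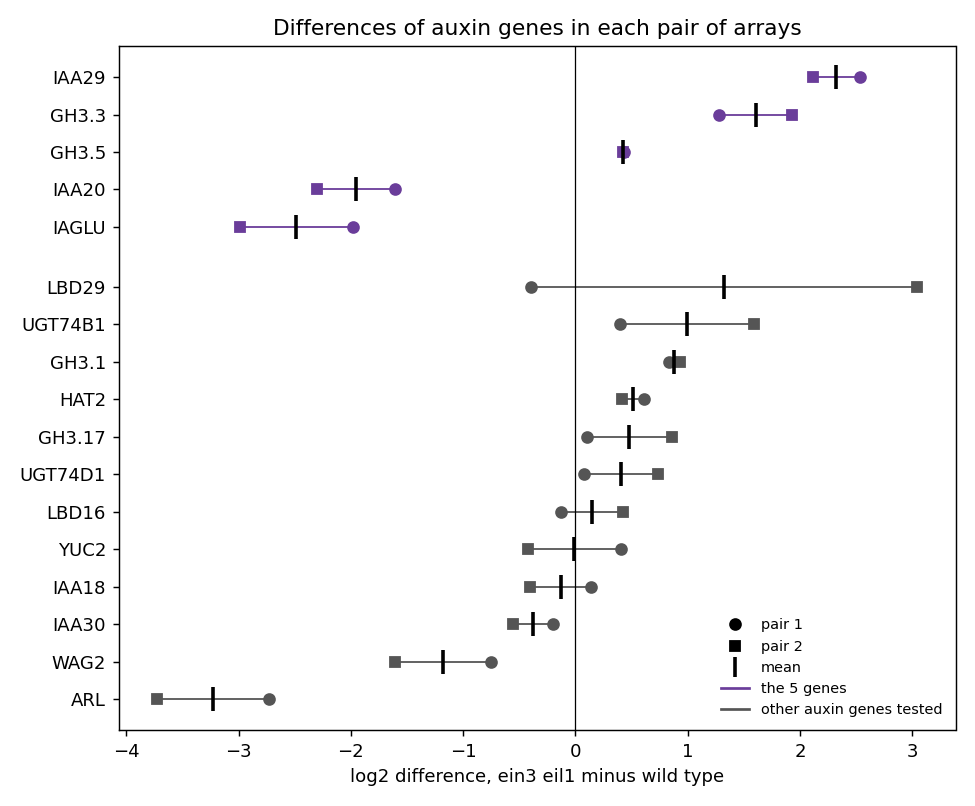
Log2 difference, ein3 eil1 minus wild type (horizontal axis), of the 5 genes (purple, top) and the 12 other tested auxin genes (grey) within array pair 1 (circles) and pair 2 (squares), with the mean as a black bar. In the 5 genes both pairs lie on the same side of zero, which follows from the lack of overlap between the genotypes. These genes were chosen with their differences known, so nothing is read from it. LBD29, LBD16, YUC2 and IAA18, in which the genotypes overlap, have opposite signs in the pairs.

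Of the genes listed as auxin-responsive outside these families, ARL fell and 3 did not pass. ARL (ARGOS-LIKE) encodes a promoter of cell expansion and is known in Arabidopsis as a brassinosteroid-responsive relative of the auxin-induced gene ARGOS. It read 87.5 and 129.8 in the mutant and 633.6 and 969.1 in wild type. Its log2 difference was -3.23 (SE 0.34, limma adjusted p = 0.0097), with -2.73 in pair 1 and -3.73 in pair 2. The list was drawn up with this fall known, so it is not independent evidence. LBD29, a lateral root gene, had the highest difference of that list, 1.33 (SE 0.95, limma adjusted p = 1.00), and its wild-type arrays read 35.5 and 2.9, so that the sign of the difference was negative in pair 1 (-0.39) and positive in pair 2 (3.05). HAT2, an auxin-induced homeobox gene, differed by 0.51 (limma adjusted p = 0.962) and LBD16 by 0.15 (limma adjusted p = 1.00).

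The 5 genes kept their direction under each scaling and pseudocount tried and without each array in turn. The filters and the block cannot change these differences by construction. Because the genotypes did not overlap in any of the 5, another pseudocount or leaving out 1 array could not reverse a direction either. Those settings therefore show only how far the size of a difference moved. The lowest and highest differences over the scalings and pseudocounts were 2.24 and 2.75 for IAA29, -1.98 and -1.55 for IAA20, 1.51 and 2.0 for GH3.3, 0.42 and 0.84 for GH3.5, and -2.53 and -2.12 for IAGLU. Without 1 array in turn they were 2.12 and 2.53 for IAA29, -2.33 and -1.57 for IAA20, 1.28 and 1.92 for GH3.3, 0.42 and 0.44 for GH3.5, and -2.91 and -2.06 for IAGLU. In every such setting GH3.5 had the smallest difference of the 5.

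**Figure D4:**
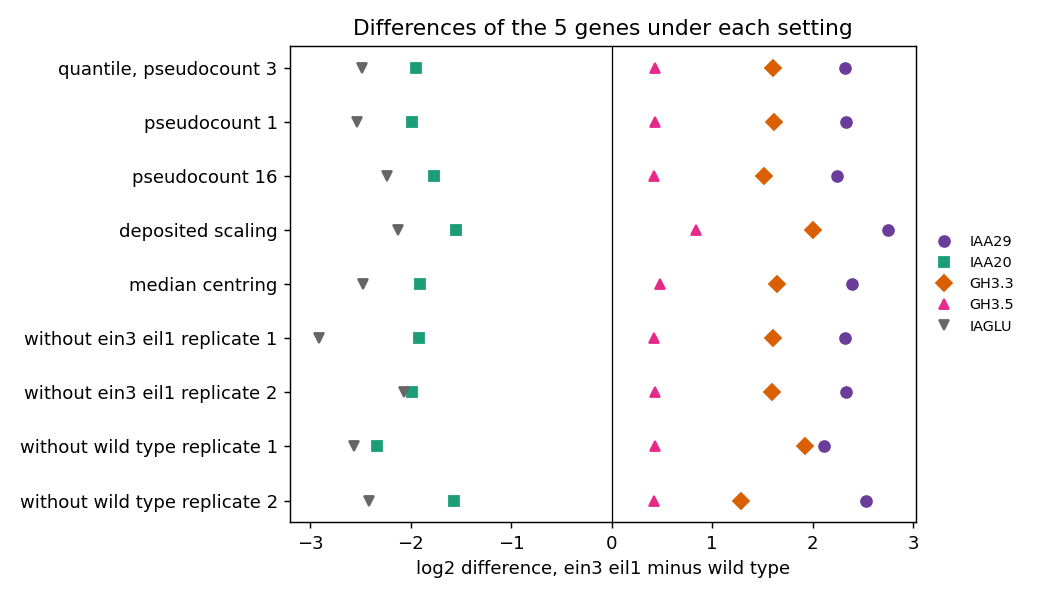
Log2 difference, ein3 eil1 minus wild type (horizontal axis), of the 5 genes under quantile normalisation with a pseudocount of 3 (top), other pseudocounts and scalings, and without each array in turn. No gene crosses zero, which the lack of overlap between the genotypes fixes in advance for the pseudocounts and for leaving out 1 array. Under the deposited scaling all 5 lie further to the right, with GH3.5 at 0.84 in place of 0.43.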

How the data were processed

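Total RNA of whole seedlings was measured on Affymetrix ATH1 arrays, 2 per genotype. The values deposited by the authors are linear signal intensities from MAS5 (per the submitters' processing notes), whose version, scaling target and detection calls are not given in the sources used here. In all, 22810 probe sets are listed, 64 of them Affymetrix controls.

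A pseudocount of 3 was added, log2 was taken, and the arrays were quantile normalised because the 2% trimmed means differed by 77.2%, above a limit of 5%. A fold on this scale understates changes of dim probe sets. The comparison of genotypes used limma 3.58.1 in R 4.3.3, two-sided and with a mean-variance trend, and p values were adjusted after Benjamini-Hochberg over 14047 tested probe sets, with a threshold of 0.05. The fit was tested on simulated data with independent noise on each array and no pair effect. That test therefore cannot show how the fit performs where arrays share a pair effect. With 2 arrays per genotype, the number of arrays limits the precision, and the p values cover only the spread among these arrays, which may be technical.

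Gene names came from the platform annotation, which paired 13513 probe sets with 1 gene, and from RefSeq (TAIR10.1), which matched 13436. Of the rest, 503 listed several genes and 8730 were not listed. The platform's symbol for GH3.5 is WES1. A gene alias shared with an unrelated kinase gene was removed from the GH3 list. The reference table holds synonyms but no gene descriptions, so small auxin up RNA genes could be looked for by symbol and synonym alone, and none was matched that way. A wider search of the synonyms for auxin terms found 9 genes, all in the lists. The members and lists were chosen with earlier results of these data known. The text names the 5 genes, EIN3, in each list the called genes or the highest and lowest difference (all Aux/IAA and GH3 genes), and the 3 nearest patterns of each gene. UGT84B1, UGT84B2, the untested YUC genes, LBD29, HAT2 and LBD16 were added after their values were seen.

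Array pairs follow the titles. The 27 Bacillus control probe sets differed between the pairs by 1.52 log2 units and inside them by 0.095 and 0.021. Over the tested plant probe sets, the replicate differences of the genotypes correlated at 0.42, and the main fit holds no term for the pair. Whether the difference of the Bacillus controls bears on the plant transcripts was not tested. The settings varied were the pseudocount, the filter, the scaling and the variance model, a block for the pair, and leaving out each array. Figures were drawn with matplotlib 3.10.9.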

Additional observations from a re-analysis of the deposited data

How the results depend on the processing

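Over all probe sets 41 were called, 11 higher and 30 lower in ein3 eil1 (73.2% lower). Without a filter 14 were called (2 higher, 12 lower), under the deposited scaling 95 (59 higher, 36 lower; 37.9% lower) and with median centring 66 (20 higher, 46 lower). Without 1 array in turn, where the lone array is assumed to vary like the others, the count ran from 107 to 244, with 47 to 138 higher and 55 to 119 lower. With the replicate block, 396 were called (178 higher, 218 lower). The labels number no replicates, and the block follows the titles. The replicate differences of the genotypes correlated at 0.42 over probe sets, with 2 pairs. Of the 12 other auxin genes, 1 was called, ARL. With the block 2 were called, ARL and WAG2 (limma adjusted p = 0.025; 0.069 to 0.937 under the other alternatives). Without wild type replicate 1, 2 were called, ARL and UGT74B1, and without each other array 1, so the count ran from 1 to 2. The call of ARL was kept under every alternative, with adjusted p up to 0.042, without a filter.

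Of the 5 genes, the deposited scaling gave 2.75 for IAA29, -1.55 for IAA20, 2.0 for GH3.3 and 0.84 for GH3.5, and median centring gave 0.48 for GH3.5. That scaling raised the median difference over all tested probe sets by 0.39, to 0.40, and relative to it the differences were 2.35 for IAA29, -1.95 for IAA20, 1.60 for GH3.3, 0.44 for GH3.5 and -2.52 for IAGLU. IAGLU moved too under the deposited scaling, from -2.49 to -2.12. Under both other pseudocounts and both other scalings it moved by less than its replicate spread, but that spread was wide (SD 0.60 in the mutant). The filters and the replicate block leave the differences of the 5 genes as they are by construction. Each gene has 1 named probe set, so the alternative of using every probe set of a gene gave no value. Signals near the 40th percentile, as for IAGLU in the mutant, limit how well its difference is known.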
